A study of Mus musculus with 9 samples.

Results

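The genes described are 10 genes of peroxisome proliferator-activated receptor (PPAR) signalling and lipid storage: the receptors Pparg, Ppard and Ppara, the fatty acid binding proteins Fabp4 and Fabp5, the uptake and lipase genes Cd36, Lpl and Angptl4, the lipid droplet coat gene Plin2 and the adipocyte hormone gene Adipoq. They were taken by gene symbol from a table of 38203 genes, and all 10 were found, each once. The symbols were picked with results of these data in view, so the levels are given as descriptions and the p-values only set a difference against the spread between libraries.

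PPARs are nuclear receptors that are activated by fatty acids and their derivatives and bind DNA as partners of the retinoid X receptors. PPARγ drives adipocyte and sebocyte differentiation, PPARα controls fatty acid oxidation, and PPARδ is the form usually found at the highest level in keratinocytes. Many of the genes they control handle lipids: binding proteins carry fatty acids inside the cell, Cd36 takes them up, lipoprotein lipase releases them from triglyceride, and perilipins coat the droplets in which they are stored.

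RNA was sequenced from the trunk epidermis of single mouse embryos at E18.5, in 9 libraries of 4 genotypes that differ in Esrp1 and Esrp2, the epithelial splicing regulatory proteins. The genotypes were WT (wild type at both genes, n = 2), KO (Esrp1-/-, Esrp2+/+, n = 3), KH (Esrp1-/-, Esrp2+/-, n = 2) and DKO (Esrp1-/-, Esrp2-/-, n = 2), on a mixed C57BL6/129Sv background. The extraction text of the samples lists controls that lack Esrp2, whereas the labels give both control embryos as wild type, and the labels are followed here (Esrp2 was at 118.1 and 135.8 FPKM in the pair). Both alleles are germline: Esrp1 lost internal exons through Zp3-Cre recombination in the oocyte and Esrp2 came from a knockout ES cell line, so every tissue of the embryo carried them and the epidermis of KO, KH and DKO embryos alike lacked functional Esrp1. The sheets were peeled after trypsin and can hold every cell type of the epidermis and what came away with it. Fewer cells of a type and less RNA per cell cannot be told apart in such samples.

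Values are FPKM, fragments per kilobase of transcript scaled to the mapped fragments of the library, and a difference is the difference of mean log2(FPKM + 1) between genotypes with its standard error from limma. A gene was called where its averages stood over 2-fold apart and its p, adjusted over the 16897 genes tested, was under 0.05. Adding 1 FPKM shrinks the change of genes near or below that level, so the ratio of average FPKM is given as well. Esrp2 stood at 0.0843 and 0.0463 FPKM in DKO and between 38.6 and 135.8 FPKM in the other 7 libraries. Esrp1 was at 18.2 to 55.1 FPKM in the 7 libraries without functional Esrp1 against 119.0 and 141.9 FPKM in WT, a gene-level value that still counts transcripts without the deleted exons. Between 11851 and 12228 genes reached 1 FPKM in a library, and the FPKM of all genes summed to between 713318 and 1130713. The female transcript Xist was at 76.2 to 180.4 FPKM in all 3 KO libraries and in 1 of the 2 WT libraries and at most 0.178 FPKM in the other 5, so the sexes are not balanced between genotypes. Libraries are separate embryos, and the read number behind an FPKM value is not given with it.

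Only Pparg passed the test. It was called higher in DKO than in WT, KO and KH, in each case as the only one of the 9 genes that entered the test. Adipoq was at or below an average of 0.1 FPKM in every genotype and was not tested. The calls are set beside the background of all tested genes: 0.728% were called between DKO and WT (0.479% higher in DKO), 0.639% between DKO and KO (0.521% higher in DKO), and 0.426% between DKO and KH (0.385% higher in DKO). None of the 9 was called in KO against WT or KH against WT, where 0.0296% of all genes were called in each, or in KH against KO, where 0.0% were. At an unadjusted p below 0.05, 2 of the 9 differed between DKO and WT, where 13.8% of all genes did. Fabp4 was the 1 of the 9 that did so in KO against WT and in KH against WT, where 4.53% and 3.72% of all genes did. The median difference of the 9 genes was 0.09 on the log2 scale in DKO, 0.10 in KO and 0.08 in KH, beside 0.02, 0 and 0 over all genes tested. These 3 comparisons share the same pair of WT libraries.

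**Figure D1:**
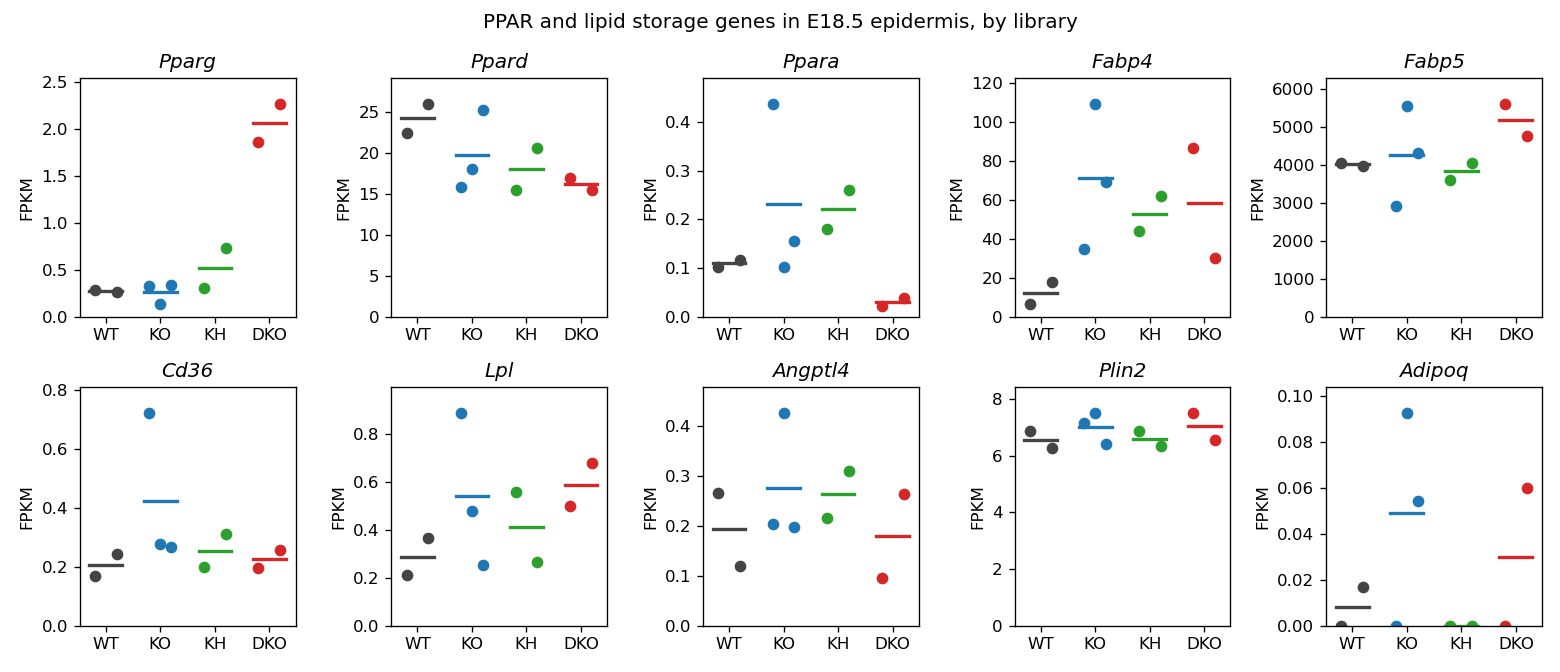
FPKM of the 10 genes (vertical axes, each from 0 and on its own scale) in the 9 libraries, grouped by genotype. Points are libraries and lines are genotype means. The 2 DKO libraries stand apart for Pparg at 1.86 and 2.26 FPKM, the 2 WT libraries are the lowest for Fabp4 at 6.66 and 17.8 FPKM, and Plin2 is level at 6.26 to 7.51 FPKM.

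Pparg encodes PPARγ, the receptor at the head of the adipocyte and sebocyte programmes. Its gene lies on chromosome 6 at 115360951 to 115490399 on the plus strand (GRCm38, GENCODE M21) and has 7 annotated transcripts, which a gene-level FPKM value adds together. RefSeq lists 3 start sites for it in the promoter table used here. Their windows, 250 bases before to 50 bases after the start on GRCm38.p6, are shown because the levels cannot tell which start was used. Capitals mark AGGTCA, the half-site that nuclear receptors of this class bind, searched on both strands (TGACCT when it lies on the other strand).

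Pparg window at chr6:115360894-115361193 (+): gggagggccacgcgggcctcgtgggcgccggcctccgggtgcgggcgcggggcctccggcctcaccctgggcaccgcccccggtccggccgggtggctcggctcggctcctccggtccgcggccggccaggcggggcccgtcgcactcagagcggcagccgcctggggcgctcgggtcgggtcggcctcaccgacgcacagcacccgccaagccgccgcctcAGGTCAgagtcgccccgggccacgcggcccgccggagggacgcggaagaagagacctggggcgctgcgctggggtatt

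Pparg window at chr6:115362099-115362398 (+): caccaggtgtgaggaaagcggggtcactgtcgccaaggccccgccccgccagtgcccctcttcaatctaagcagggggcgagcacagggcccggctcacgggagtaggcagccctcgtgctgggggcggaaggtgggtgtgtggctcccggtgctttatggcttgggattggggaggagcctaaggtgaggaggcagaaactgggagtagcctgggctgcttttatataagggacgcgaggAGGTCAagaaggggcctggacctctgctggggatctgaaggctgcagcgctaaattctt

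Pparg window at chr6:115421816-115422115 (+): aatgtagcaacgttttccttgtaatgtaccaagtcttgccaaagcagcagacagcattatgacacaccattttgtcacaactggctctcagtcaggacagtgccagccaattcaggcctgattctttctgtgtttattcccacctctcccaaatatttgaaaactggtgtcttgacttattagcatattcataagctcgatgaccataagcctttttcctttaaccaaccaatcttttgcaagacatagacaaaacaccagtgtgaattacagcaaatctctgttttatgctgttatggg

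The first window holds AGGTCA from base -28 and the second from base -9, counted relative to the start, both on the gene's own strand. The third window, about the downstream start, holds none. Among the 10 genes, 6 had an entry in the table with 8 windows in all, and 4 of these 8 held the half-site: 2 of Pparg and 1 each of Plin2 and Cd36, both on the other strand. Over all 32851 windows of the same length, 16.3% held it. The full direct repeat AGGTCANAGGTCA was in 0.0396% of all windows and in none of these 8. Fabp4, Fabp5, Lpl and Angptl4 had no entry. A match of letters is not a binding site.

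Pparg measured 1.86 and 2.26 FPKM in DKO, 0.301 and 0.733 FPKM in KH, 0.322, 0.129 and 0.339 FPKM in KO, and 0.286 and 0.263 FPKM in WT. Both DKO libraries lay above all 7 others, as they did for 5.33% of all tested genes. The KH libraries also both lay above the WT libraries, but KH replicate 1 was within 0.04 FPKM of KO replicates 1 and 3. The genotype means were 2.06 ± 0.285 FPKM in DKO (SD, n = 2), 0.517 ± 0.306 in KH (n = 2), 0.263 ± 0.117 in KO (n = 3) and 0.274 ± 0.0159 in WT (n = 2). Pparg was therefore a gene of low level with like averages in the 2 genotypes that kept both Esrp2 alleles, WT and KO. In TPM it was at 1.67 and 2.93 in DKO and between 0.114 and 0.792 in the others. Among the 5 libraries at low Xist, the DKO pair compares with 0.286 to 0.733 FPKM in the other 3.

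The average FPKM of Pparg in DKO was 7.51 times that in WT, 7.83 times that in KO and 3.99 times that in KH. On the log2(FPKM + 1) scale it rose by 1.26 against WT (SE 0.16, adjusted p = 0.0113, limma), by 1.28 against KO (SE 0.15, adjusted p = 0.00615) and by 1.02 against KH (SE 0.16, adjusted p = 0.0449). The difference between KH and WT was 0.24 with an interval of -0.14 to 0.61 (95%), and that between KO and WT was -0.02 with an interval of -0.36 to 0.33, so that neither was larger than the spread. The calls in DKO lean on single libraries. The call against WT was lost without DKO replicate 1 (adjusted p = 0.0547), DKO replicate 2 (0.0842), WT replicate 1 (0.111) or WT replicate 2 (0.145), with adjusted p from 0.00629 to 0.145 over the 9 libraries left out in turn. The call against KO was lost without DKO replicate 2 (adjusted p = 0.0602, range 0.00358 to 0.0602), and that against KH was lost for each library left out except KH replicate 2 (range 0.0284 to 0.230). Leaving out DKO replicate 1 and KO replicate 2, which have the highest FPKM sums, gave 1.36 against WT (adjusted p = 0.136) and 1.29 against KO (adjusted p = 0.185). When the number of a replicate, which the labels do not describe as a pairing, was added as a block, the adjusted p was 0.0636 against WT and 0.0665 against KO.

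Sebaceous glands and adipocytes are known sources of PPARγ in skin. The summed FPKM of 11 sebaceous gland markers was 22.1 to 39.9 in DKO, 20.1 to 53.0 in KH, 18.7 to 34.6 in KO and 39.5 to 44.0 in WT, and that of 12 adipocyte markers was 11.8 to 16.4 in DKO, 8.40 to 27.0 in KH, 10.6 to 20.5 in KO and 23.1 to 23.4 in WT. In neither sum did both DKO libraries lie above the libraries of any other genotype. Of the 12 adipocyte markers, 10 stayed below 1 FPKM in all libraries, with Adipoq at most 0.0925 FPKM. The 2 highest were Lipe and Slc2a4, so the sum is a weak measure of adipocytes. The median difference of the 10 sebaceous markers tested was -0.41 between DKO and WT, none was called, and 2 of the 10 were positive, Cidea and Dgat2l6. For each of these the 2 DKO libraries lay above the 7 others, as for Pparg. Dgat2l6, a sebaceous acyltransferase gene, was at 2.17 and 0.466 FPKM in DKO, at most 0.382 FPKM in the others, and differed from WT by 0.86 (SE 0.30, adjusted p = 0.269). For 2 other sebaceous markers, Elovl3 and Far2, the DKO libraries lay below all 7, with Far2 at 1.47 and 0.385 FPKM in DKO and 2.75 to 15.4 FPKM elsewhere. Of the 4 adipocyte markers tested, Retn had both DKO libraries above the 7 others, at 0.555 and 0.319 FPKM against 0.0266 to 0.299 FPKM, and Slc2a4 had both below. The part of sebaceous cells and adipocytes in the Pparg difference was not tested. The genes averaging 5 FPKM or more that followed Pparg most closely over the 9 libraries were Trib1 (Pearson's r = 0.965), Mapre2 (0.959) and the wound keratin gene Krt6b (0.952), picked as the top of 8630 genes and given with no test.

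Ppard encodes PPARδ and was the receptor with the highest level in all 9 libraries. It measured 17.0 and 15.4 FPKM in DKO, 15.5 and 20.6 FPKM in KH, 15.8, 18.03 and 25.3 FPKM in KO, and 22.4 and 26.0 FPKM in WT. The means were 16.2 ± 1.10 FPKM in DKO, 18.1 ± 3.60 in KH, 19.7 ± 4.94 in KO and 24.2 ± 2.51 in WT. Both DKO libraries and both KH libraries lay below the WT libraries, whereas KO replicate 3 lay between the 2 WT libraries and the spread within KO covered most of the range. The DKO average was 0.669 of the WT average, a difference of -0.55 on the log2(FPKM + 1) scale (SE 0.25, interval -1.13 to 0.03, adjusted p = 0.385). The differences from WT were -0.41 in KH (SE 0.25) and -0.31 in KO (SE 0.23). None passed the test, so the order DKO, KH, KO, WT of the means is not separated from the spread between embryos. The genes averaging at least 5 FPKM whose levels ran closest to Ppard were Golga2 (r = 0.988), Acot2 (0.985) and Itpkb (0.984), over the 9 libraries and with no test.

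Ppara, the receptor best known from liver and heart, was barely detected. It measured 0.0207 and 0.0383 FPKM in DKO, 0.180 and 0.261 FPKM in KH, 0.438, 0.102 and 0.156 FPKM in KO, and 0.102 and 0.117 FPKM in WT. Both DKO libraries lay below the 7 others, as they did for 5.56% of all tested genes. The DKO mean of 0.0295 ± 0.0124 FPKM was 0.269 of the WT mean of 0.109 ± 0.0104 FPKM. At this level the added 1 FPKM leaves a difference of only -0.11 (SE 0.13, interval -0.39 to 0.18, adjusted p = 0.719), and the differences of -0.25 from KO (adjusted p = 0.765) and -0.24 from KH (adjusted p = 0.945) did not pass either. Within DKO, then, Ppard stood at 16.2 FPKM, Pparg at 2.06 FPKM and Ppara at 0.0295 FPKM on average. In WT these means were 24.2, 0.274 and 0.109 FPKM.

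**Figure D2:**
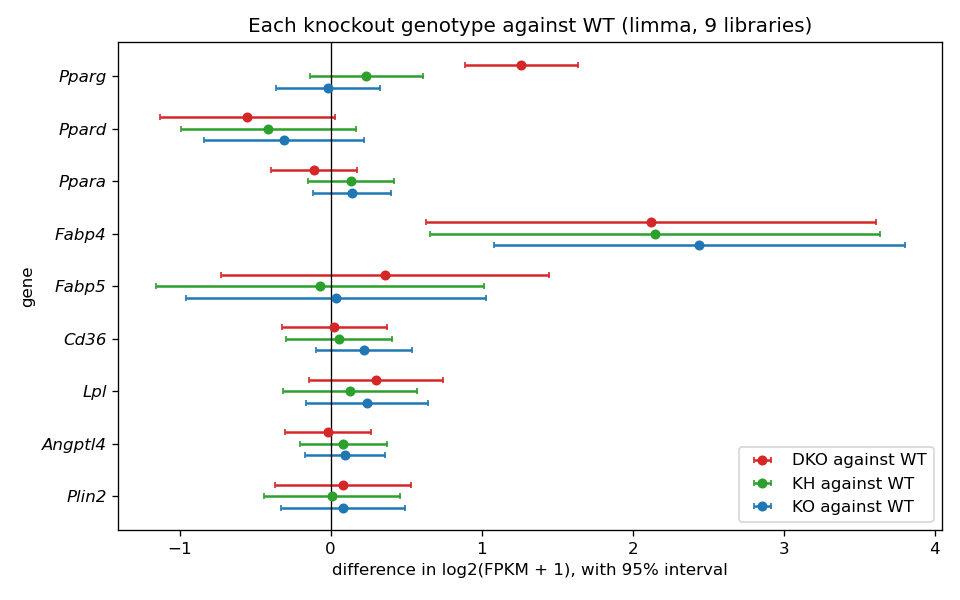
Difference in log2(FPKM + 1) from WT (horizontal axis) for the 9 genes tested, with 95% intervals from limma, for DKO (red), KH (green) and KO (blue). The Pparg interval in DKO runs from 0.89 to 1.64, those of Fabp4 lie above 0 in all 3 genotypes, and those of Plin2, Cd36 and Angptl4 cross 0.

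Fabp4 is the fatty acid binding protein of adipocytes, macrophages and capillary endothelium, and its gene is a classical target of PPARγ. It lies on chromosome 3 at 10204088 to 10208576 on the minus strand, in the same cluster as Fabp5 (10012548 to 10016607, plus strand). It measured 87.0 and 30.0 FPKM in DKO, 44.0 and 62.0 FPKM in KH, 34.5, 109.5 and 69.3 FPKM in KO, and 6.66 and 17.8 FPKM in WT. All 7 libraries without functional Esrp1 lay above both WT libraries, as they did for 5.07% of all tested genes. The means were 58.5 ± 40.3 FPKM in DKO, 53.0 ± 12.7 in KH, 71.1 ± 37.5 in KO and 12.2 ± 7.90 in WT. The ratios of average FPKM to WT were thus 4.78, 4.33 and 5.81, and the 3 knockout genotypes overlapped one another.

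Despite these ratios Fabp4 was not called. The difference from WT was 2.12 in DKO (SE 0.65, interval 0.63 to 3.61, adjusted p = 0.217, limma), 2.15 in KH (SE 0.65, adjusted p = 0.980) and 2.44 in KO (SE 0.60, adjusted p = 0.853). Libraries of 1 genotype lay far apart, from 34.5 to 109.5 FPKM in KO and from 30.0 to 87.0 FPKM in DKO. With 1 library left out at a time, the difference ran from 1.37 to 2.87 in DKO (without DKO replicate 1 and DKO replicate 2). In KO its bounds were 1.79 and 3.09, and in KH 1.5 and 2.80 (both without WT replicate 1 and WT replicate 2). Between DKO and KO the difference was -0.32 (interval -1.68 to 1.04), which is within the spread between embryos. Pparg, by contrast, was called in DKO and differed by -0.02 between KO and WT. The 2 genes were not tested against each other.

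The sum of FPKM over all genes varied between libraries, and Fabp4 moved with it. In each knockout genotype the library with the higher FPKM sum also had more Fabp4: KO replicate 2 and DKO replicate 1, which had the highest sums of 1130713 and 1112137, had the 2 highest Fabp4 values. The pair of WT libraries ran the other way. After each library was rescaled to the same sum (TPM), Fabp4 was 7.44 and 20.5 in WT and between 38.9 and 96.8 in the other 7, so the groups still did not overlap. Without DKO replicate 1 and KO replicate 2, the Fabp4 difference from WT was 1.37 in DKO, 2.06 in KO and 2.15 in KH on the log2 scale.

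**Figure D3:**
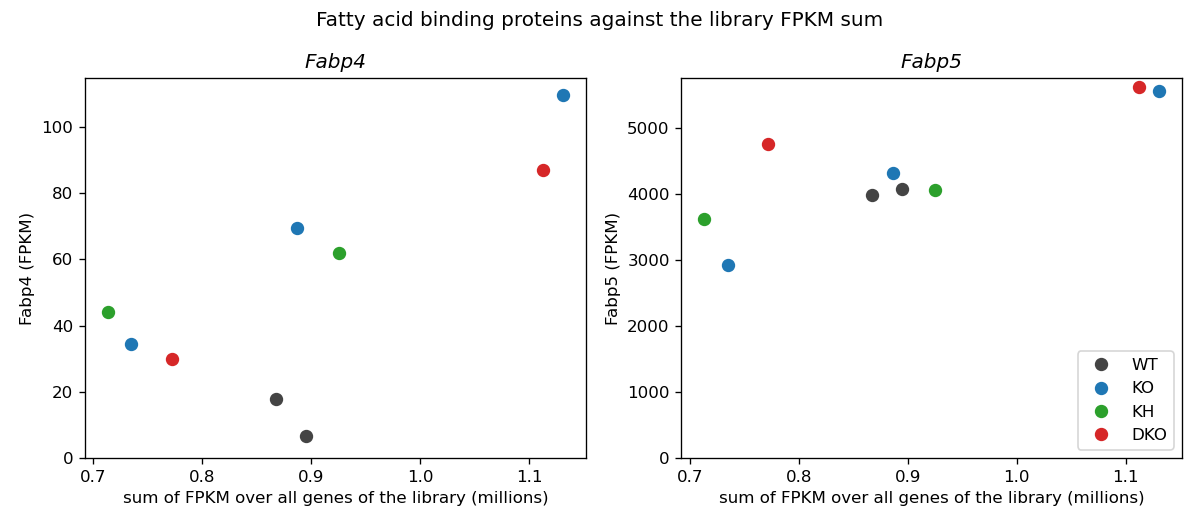
Fabp4 (left) and Fabp5 (right) in FPKM against the FPKM sum of the library (scale in the axis label), 1 point a library, coloured by genotype. Fabp4 in the 2 WT libraries lies below the other 7 at sums of 867380 and 895103, and Fabp5 runs from 2931 FPKM at a sum of 734747 to 5617 FPKM at 1112137.

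Markers of cells that may carry Fabp4 were read in the same libraries. Of 10 endothelial markers, 9 stayed below 1 FPKM in all libraries and Gpihbp1 was at 0, while Egfl7 was at 1.46 to 4.09 FPKM and Pecam1 at 0.0994 to 0.312 FPKM. The endothelial sum was 1.76 to 2.24 FPKM in WT, 2.202 to 4.10 in KH, 2.43 to 4.38 in KO and 2.26 to 3.06 in DKO. Of 12 adipocyte markers, 10 stayed below 1 FPKM and Thrsp was at 0. The macrophage and Langerhans cell sum was 17.7 to 27.1 FPKM in WT, 23.0 to 62.3 in KH, 24.0 to 36.1 in KO and 33.0 to 60.6 in DKO. The sum of 10 dermal fibroblast markers was 288.4 and 332.6 FPKM in WT and 396.9 to 539.5 FPKM in the 7 other libraries. Postn made up most of that sum, and Postn and Fbln1 were the 2 of the 10 above WT in all 7 libraries, an order seen for 5.07% of all tested genes. Of 8 fibroblast markers tested, 7 were positive in KO against WT (median 0.47), 7 in KH (median 0.13) and 5 in DKO (median 0.12). Col1a2 lay above WT in all 3 KO libraries, at 4.69, 1.123 and 1.27 FPKM against 1.02 and 0.933 FPKM, whereas Dcn, the second highest, was at 42.3 and 72.8 FPKM in DKO and 72.6 and 84.0 FPKM in WT. Egfl7, the only endothelial marker above 1 FPKM, also lay above WT in all 7 libraries, at 1.83 to 4.09 against 1.78 and 1.46 FPKM. Of 9 macrophage and Langerhans cell markers tested, 8 were positive in DKO (median 0.59), 8 in KO (median 0.30) and 9 in KH (median 0.64) against WT, and 6 had both DKO libraries above WT. Over all genes tested, 27.8% had both DKO libraries above WT, and the medians were 0.02 in DKO and 0 in KO and KH. No marker of these lists was called in any comparison, and their part in the Fabp4 difference was not tested.

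**Figure D4:**
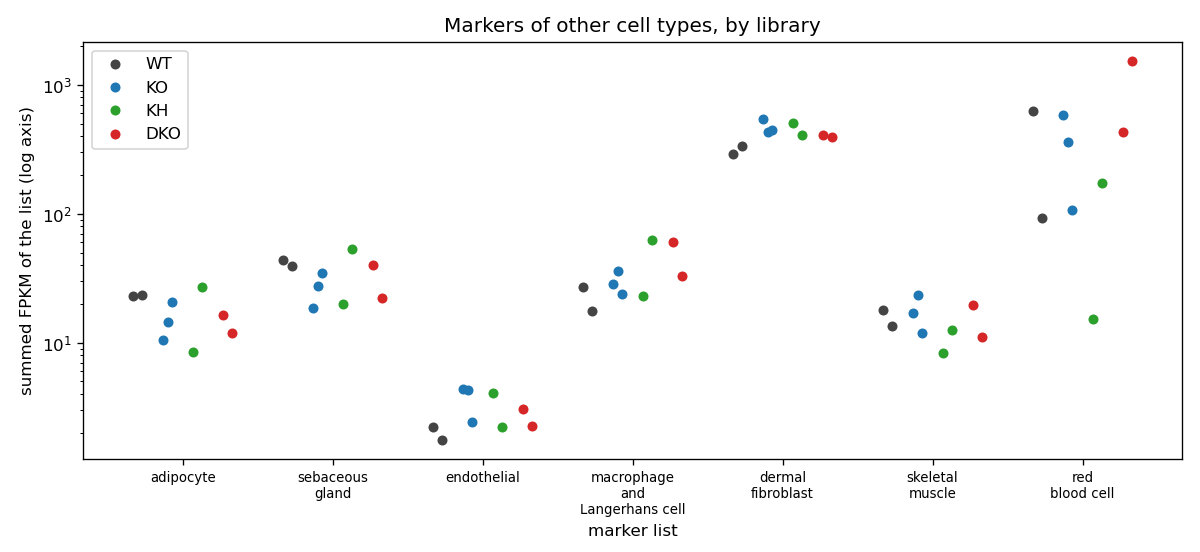
Summed FPKM (vertical log axis) of marker lists for 7 cell types other than keratinocytes, 1 point a library, by genotype. The endothelial sum is at most 4.38 FPKM in any library, and the dermal fibroblast sum is lower in both WT libraries (288.4 and 332.6 FPKM) than in the 7 others.

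Over the 9 libraries the genes closest to Fabp4 were the cyclin gene Ccnd3 (r = 0.925), Wbp4 (0.925) and Ly6k (0.907), again the top of 8630 genes averaging 5 FPKM or more, with no test.

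Fabp5, the epidermal fatty acid binding protein, was by far the most abundant of the 10 and made up most of their summed FPKM. It measured 5617 and 4760 FPKM in DKO, 3618 and 4057 FPKM in KH, 2931, 5558 and 4314 FPKM in KO, and 4069 and 3980 FPKM in WT. The DKO libraries lay above WT and KH, but KO replicate 2 was close to the higher of them. The means were 5189 ± 606 FPKM in DKO, 3838 ± 311 in KH, 4267 ± 1314 in KO and 4025 ± 63.0 in WT. The difference between DKO and WT was 0.36 (SE 0.48, interval -0.73 to 1.45, adjusted p = 0.755). In TPM, with every library at the same sum, the means were 5609 ± 790 in DKO, 4728 ± 486 in KH, 4590 ± 521 in KO and 4567 ± 30.1 in WT, and the highest library was 1.55 times the lowest against 1.92 times in FPKM. The methods and text describe the mapped pairs as unique, without saying how reads that fit Fabp4, Fabp5 or a near copy equally well entered the FPKM, so Fabp4, the lower of the pair, is uncertain to that extent.

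The genes of fatty acid uptake and of lipoprotein lipase stayed below 1 FPKM in every library. Cd36, a fatty acid translocase of fat, muscle and endothelium, measured 0.196 and 0.258 FPKM in DKO, 0.198 and 0.311 FPKM in KH, 0.723, 0.277 and 0.266 FPKM in KO, and 0.169 and 0.242 FPKM in WT. The 3 KO libraries lay above WT, led by KO replicate 1, and the DKO and KH libraries overlapped WT. The difference from WT was 0.22 in KO (SE 0.14, interval -0.10 to 0.54) and 0.03 in DKO (SE 0.15, adjusted p = 0.956).

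Lpl encodes lipoprotein lipase, which frees fatty acids from circulating triglyceride. It measured 0.497 and 0.678 FPKM in DKO, 0.557 and 0.267 FPKM in KH, 0.887, 0.480 and 0.254 FPKM in KO, and 0.212 and 0.363 FPKM in WT. The DKO libraries lay above the WT libraries and their average was 2.04 times as high, but the KO and KH libraries overlapped both. The difference of 0.30 between DKO and WT (SE 0.19, interval -0.14 to 0.74, adjusted p = 0.509) did not pass. Angptl4, a secreted inhibitor of that lipase and a target of all 3 PPARs, measured 0.0964 and 0.264 FPKM in DKO, 0.216 and 0.311 FPKM in KH, 0.205, 0.427 and 0.198 FPKM in KO, and 0.267 and 0.120 FPKM in WT. Its genotypes overlapped, with a difference of -0.02 between DKO and WT (SE 0.13, interval -0.30 to 0.27, adjusted p = 0.967).

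Plin2 coats lipid droplets in most cell types and, in many cells, follows the amount of stored lipid and the activity of PPARs. It measured 7.51 and 6.55 FPKM in DKO, 6.86 and 6.34 FPKM in KH, 7.15, 7.51 and 6.41 FPKM in KO, and 6.87 and 6.26 FPKM in WT. The highest library was 1.20 times the lowest. Among 12197 genes averaging at least 1 FPKM, 57 (0.467%) were as even or more so, and the median gene had a ratio of 1.97. Rescaled to a common library sum, the ratio for Plin2 was 1.46. The means were 7.03 ± 0.677 FPKM in DKO, 6.60 ± 0.362 in KH, 7.02 ± 0.560 in KO and 6.56 ± 0.430 in WT, and the difference between DKO and WT was 0.09 (SE 0.20, interval -0.36 to 0.54, adjusted p = 0.870). A difference of 2-fold in either direction lies outside that interval.

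Its promoter window, at 86670010 to 86670309 on chromosome 4 (minus strand, GRCm38.p6), carries the half-site as TGACCT from base -218 on the other strand. Adipoq encodes adiponectin, a hormone made by adipocytes. It was listed at 0 in 5 of the 9 libraries and did not exceed 0.0925 FPKM in the other 4.

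Counted over the 9 genes tested, 4 had both DKO libraries above both WT libraries (Pparg, Fabp4, Fabp5 and Lpl) and 2 had them below (Ppard and Ppara). Over all genes these shares were 27.8% and 26.4%. Against WT, the KO libraries were all higher for 2 genes, Fabp4 and Cd36, where 12.6% of all genes were higher and 12.1% lower. The KH libraries were both higher for 3, Pparg, Ppara and Fabp4, and both lower for 1, Ppard, against 15.3% and 16.6% of all genes. Against KO, the DKO libraries were both higher for 1 gene, Pparg, and both lower for 2, Ppara and Cd36, against 11.2% and 9.88% of all genes. Against KH, they were both higher for 2, Pparg and Fabp5, and both lower for 1, Ppara, against 14.3% and 14.5%. No gene of the 9 had separate libraries in KH and KO, where 3.58% and 3.77% of all genes were higher and lower. These counts cover genes that were selected by name and say only how the libraries lie.

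The wider pathway was read from 8 lists of PPAR partners and of genes for binding, activating, storing and oxidising fatty acids, 138 genes in the table, of which 109 were tested. None of the 109 was called in DKO, KO or KH against WT, where 0.728%, 0.0296% and 0.0296% of all genes were. In DKO against WT that count was 7 with the 2 genotypes fitted alone (Acsl6, Apoe, Fabp6, Gyk, Lpin3, Pcsk6 and Stat5a), 8 with library weights (Acox2, Acsl6, Apoe, Cidea, Fabp6, Fgf21, Gyk and Stat5a), 2 with the loess correction for transcript length (Fabp6 and Gyk), and at most 1, Gyk, under every other alternative run. Over all genes, 400 of 16388 were called with the 2 genotypes alone, 556 of 16897 with weights and 150 of 16605 with the loess correction. In DKO against WT, 23 of the 109 (21.1%) had an unadjusted p below 0.05, beside 13.8% of all genes tested. In KO and KH against WT these counts were 9 (8.26%) and 10 (9.17%), beside 4.53% and 3.72% of all genes. The median difference from WT was -0.04 in DKO, -0.11 in KO and -0.15 in KH. Both DKO libraries were above the 7 others for 6 genes (Acox2, Cidea, Fabp12, Fgf21, Gyk and Mogat1) and below them for 8 (Acadl, Fabp6, Lpin3, Nrip1, Plin3, Slc25a20, Stat5a and Stat5b), shares of 5.50% and 7.34% near the 5.33% and 5.56% of all genes. The 7 libraries without functional Esrp1 were above WT for 7 genes (6.42%), among them Apoe and the lipase gene Mgll, and below WT for 8 (7.34%), among them the oxidation genes Acaa2 and Hadha, beside 5.07% and 5.08% of all genes.

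**Figure D5:**
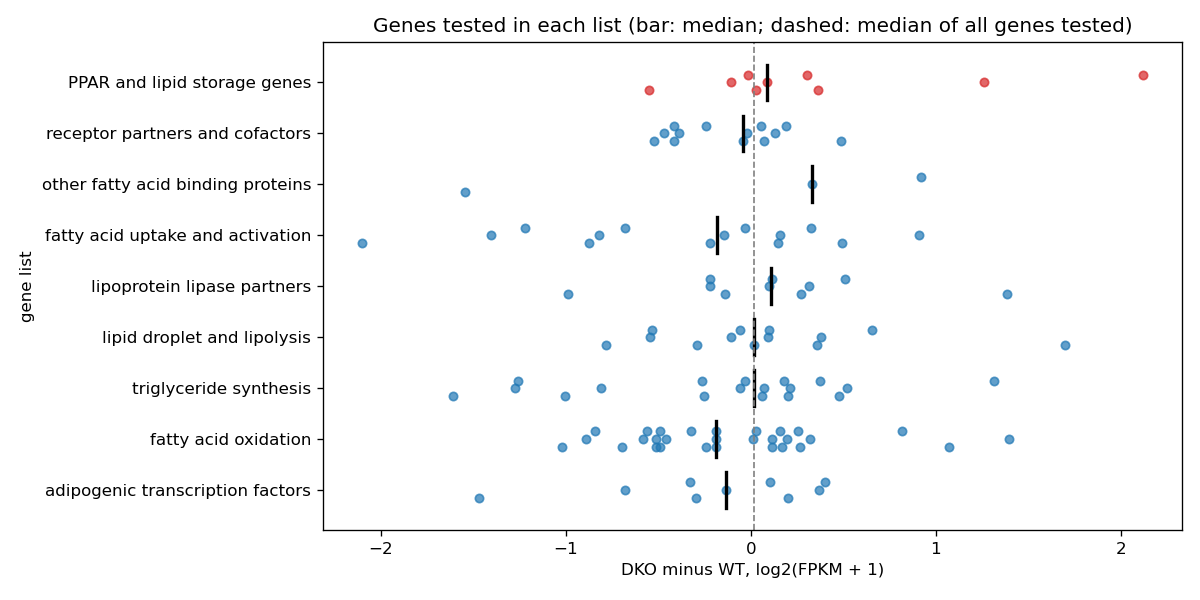
Difference in log2(FPKM + 1) between DKO and WT (horizontal axis) for the genes tested in each list. Points are genes, bars are list medians and the dashed line is the median of all genes tested, 0.02. List medians run from -0.19 for fatty acid oxidation to 0.33 for the other fatty acid binding proteins, of which only 3 were tested.

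Of these lists, triglyceride synthesis held the single call of the main settings, Gyk in DKO against KO. In that comparison Cidea and Fabp6 were called on TPM in place of Gyk. Beside Gyk, Cidea was called with library weights, with the loess correction and without KH replicate 2, and Fabp6 with the loess correction. Gyk, the older symbol of glycerol kinase, which makes the glycerol phosphate backbone of triglyceride, measured 9.91 and 12.0 FPKM in DKO and 2.67 to 4.14 FPKM in the other 7 libraries. It rose by 1.50 in DKO against KO (SE 0.21, adjusted p = 0.0195, limma). Every KO library was high in Xist and neither DKO library was, so sex and genotype cannot be told apart in that comparison. The Gyk difference from WT was 1.32 (SE 0.23, adjusted p = 0.0513), just short of the call and from 0.0117 to 0.203 over 11 alternatives that keep all libraries. Its difference from KH was 1.31 (adjusted p = 0.0783). The call against KO was lost without DKO replicate 1 (adjusted p = 0.114), DKO replicate 2 (0.168), KO replicate 1 (0.0681), KO replicate 2 (0.0876), WT replicate 1 (0.0589) or WT replicate 2 (0.0699), with a range of 0.0223 to 0.168 over all 9 left out in turn. In the same list Gpam, the first acyltransferase of the pathway, differed by -1.61 between DKO and WT (SE 0.58, adjusted p = 0.281), and the list's median was 0.02 over 18 genes.

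Among lipid droplet genes, Cidea, a droplet protein of brown fat and sebaceous gland, measured 11.4 and 4.95 FPKM in DKO and 0.503 to 2.22 FPKM in the other 7 libraries. Its difference between DKO and WT was 1.70 (SE 0.43, adjusted p = 0.145). The hormone-sensitive lipase gene Lipe differed by -0.78 (SE 0.59, adjusted p = 0.567). Of the other perilipins, Plin3 was at 29.8 and 28.9 FPKM in DKO and 30.7 to 48.0 FPKM in the other 7, and Plin1, Plin4 and Plin5 were at most 0.0377 FPKM in any library. The list's median was 0.02 over 13 genes.

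Fatty acid oxidation was the longest list, with 29 of 33 genes tested and a median of -0.19 between DKO and WT. Both DKO libraries were below both WT libraries for 14 of the 29 and above them for 6, beside 26.4% and 27.8% of all genes. Its largest differences were nevertheless upward and at low level. Acox2, a peroxisomal oxidase, measured 4.86 and 4.07 FPKM in DKO and 0.266 to 1.57 FPKM in the others, a difference of 1.397 from WT (SE 0.34, adjusted p = 0.134), and Fgf21, a fasting hormone controlled by PPARα in liver, differed by 1.07 (SE 0.26, adjusted p = 0.138). The liver targets Cyp4a10, Cyp4a12a and Cyp4a14 were listed at 0 in all libraries.

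Among the other fatty acid binding proteins, Fabp6, known from the ileum, measured 1.01 and 0.587 FPKM in DKO and 2.81 to 6.95 FPKM in the other 7 libraries, a difference of -1.55 from WT (SE 0.37, adjusted p = 0.131, and 0.0266 to 0.549 over the alternatives). Fabp7 differed by 0.92 (SE 0.30, adjusted p = 0.243). In the uptake and activation list, with a median of -0.18 over 14 genes, the acyl-CoA synthetases Acsl6 and Acsl4 differed by -2.10 (SE 0.54, adjusted p = 0.154) and -1.41 (SE 0.40, adjusted p = 0.187). Among the partners of lipoprotein lipase, with a median of 0.11 over 10 genes, the apolipoprotein gene Apoe measured 356.5 and 310.1 FPKM in DKO and 138.8 and 115.1 FPKM in WT, a difference of 1.39 (SE 0.33, adjusted p = 0.131, and 0.0285 to 0.705 over the alternatives). Pcsk6, a protease of the list, differed by -0.99 (SE 0.46, adjusted p = 0.383), and Gpihbp1, which anchors the lipase to capillaries, was at 0.

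The receptor partners and cofactors had a median of -0.04 over 13 genes. The coactivator Ncoa2 differed by -0.52 between DKO and WT (SE 0.27, adjusted p = 0.430). Among 9 adipogenic transcription factors, with a median of -0.14, the largest were -1.47 for Stat5a (SE 0.35, adjusted p = 0.136) and -0.68 for Stat5b (SE 0.28, adjusted p = 0.334), both lower in the 2 DKO libraries than in the other 7.

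The remaining marker lists describe the sheets themselves. The keratinocyte genes were abundant in all 9 libraries, with Krt5 at 1676 to 3896 FPKM, Krt14 at 1722 to 3692 FPKM, Krt10 at 10815 to 35425 FPKM and Krt1 at 10310 to 29862 FPKM. The granular genes Lor (1973 to 7007 FPKM) and Flg (1005 to 3815 FPKM) were present in each. Between DKO and WT the median difference was 0.35 for 8 basal, -0.78 for 6 spinous and -0.27 for 8 granular markers, none of them called. Hemoglobin genes stood apart in DKO replicate 2, with Hbb-b1 at 729.5 FPKM and Hba-a1 at 306.7 FPKM, and the red blood cell sum was 431.5 to 1520 FPKM in DKO, 15.4 to 171.9 in KH, 106.3 to 587.4 in KO and 93.0 to 624.1 in WT. Between DKO and KH, where Pparg was called, the median difference of 7 red blood cell markers was 3.57. There 5 of the 7 had an unadjusted p below 0.05 (limma), beside 5.71% of all genes. In DKO against WT and against KO, where Pparg was also called, the medians were 1.66 and 1.42, and 0 of the 7 had such a p. Skeletal muscle markers, led by Mylpf and Tnni2, summed to 8.32 to 23.5 FPKM over all libraries. The highest markers of the other lists were Lipe and Slc2a4 for adipocytes, Prdm1 and Far2 for sebaceous gland, Cd68 and Csf1r for macrophages and Langerhans cells, and Postn and Dcn for fibroblasts. Cd68 was at 14.7 and 8.05 FPKM in DKO and at 5.40 and 4.07 FPKM in WT. Csf1r overlapped, at 7.58 and 4.71 FPKM in DKO and 6.28 and 3.28 FPKM in WT. These values lie beside the Pparg and Fabp4 results, and their part in them was not tested.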

How the data were processed

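Per the labels and methods, stranded mRNA libraries were aligned by the authors with TopHat 1.4.1 to mm10 and transcripts of Ensembl release 72, and Cuffdiff 2.2.0 gave the deposited FPKM per gene and library. The library scaling option is not given in the sources used here. FPKM carries no read counts, so counting intervals and count tests were not available. The paper gives the mapped pairs of the whole set and a minimum for each genetic group, which were not used here. The genotype averages deposited beside the 9 library columns were not used. Of the gene IDs, 95.1% were in GENCODE M21, which gave the positions.

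Differences were tested with limma 3.58.1 (R 4.3.3) on log2(FPKM + 1): all 9 libraries, 4 genotype means, an intensity trend, and Benjamini-Hochberg adjustment over genes averaging more than 0.1 FPKM in at least 1 genotype. P-values set a difference against the spread between libraries, pooled over the 4 genotypes and moderated across genes. Each library is a single embryo. The script was tested on simulated data. Tables used pandas 2.3.3 and numpy 2.4.6, and figures matplotlib 3.10.9. Genes and lists were chosen with earlier results of these data known. Text names the 10 genes, Esrp1 and Esrp2, from each of 8 lists any gene called and the 2 largest DKO differences from WT among genes averaging at least 1 FPKM in a genotype, the 2 highest markers of each marker list and markers at 0, and the 3 genes correlating best with each of the 3 genes that changed most. Xist, Plin1, Plin3, Plin4, Plin5, Mgll, Acaa2, Hadha, Dgat2l6, Elovl3, Retn, Lpin3, Fbln1 and Col1a2 were named after their values were seen. So were Fabp12, Mogat1, Acadl, Nrip1, Slc25a20, Cyp4a10, Cyp4a12a and Cyp4a14. Of the genes this rule names, 1 is not reported here. Alternatives varied the pseudocount (0.1), filter (none or 1 FPKM), samples fitted, trend, scaling (TPM, median ratio, quantile), library weights, a replicate block and the fold line, and left out each library in turn. A loess correction for transcript length and leaving out the 2 libraries with the highest FPKM sums were added after seeing the data.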

Additional observations from a re-analysis of the deposited data

How the results depend on the processing

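Pparg stayed higher in DKO under every alternative run, by 1.22 to 2.52 on the log2 scale against WT with all libraries kept and by 1.17 to 1.36 with 1 left out, but the number of the 9 tested genes called was often 0 instead of 1. Against WT it was 0 with a pseudocount of 0.1 FPKM, without a filter, with a replicate block, and without the 2 libraries of highest FPKM sum. Against KO it was 0 without a filter, with a replicate block, and without those 2 libraries. Against KH it was 0 under these 4, with a filter at 1 FPKM, with the 2 genotypes fitted alone, without the trend, on TPM, with library weights, and with the loess correction for transcript length. When libraries were left out 1 at a time, the number ran from 0 to 1 in all 3 comparisons. The adjusted p of Pparg over the 11 alternatives that keep all libraries ran from 0.00126 to 0.179 against WT, 0.00255 to 0.147 against KO, and 0.0181 to 0.514 against KH. The Gyk call in DKO against KO was lost in 4 of these 11, with adjusted p from 0.00945 to 0.126. Of the 8 pathway lists, 0 genes were called in DKO against WT, against 7 with the 2 genotypes alone and 8 with library weights. Of all genes tested, 123, 400 and 556 were called in these fits. Why the calls changed was not tested.

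Deviations of libraries with the same replicate number correlated between -0.599 and 0.490. In a genotype with 2 libraries these deviations mirror each other, so the values cannot tell whether the numbers pair the samples. The labels do not describe the numbers as pairs, and the block moved the genes called between DKO and WT from 123 to 67. Over all alternatives that number ran from 41 (no filter) to 556 (library weights), with 42 of 123 lower, against 81 of 177 on TPM, 259 of 400 with the 2 genotypes alone and 306 of 556 with weights. For the other comparisons it ran from 0 to 17 around 5 in KO against WT, 0 to 33 around 5 in KH against WT, 45 to 149 around 108 in DKO against KO, 33 to 102 around 72 in DKO against KH, and 0 to 21 around 0 in KH against KO, where 185 genes had an unadjusted p below 0.05. Fabp4 was not called under any alternative in DKO against WT (log2 difference 2.06 to 2.23, and 1.37 to 2.87 with 1 library left out).

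The sign turned only for differences near 0. With 1 library left out, the DKO difference from WT ran from -0.0007068 to 0.17 for Plin2 (lowest without DKO replicate 1, alone or with KO replicate 2), -0.01756 to 0.070 for Cd36 (also -0.01054 without DKO replicate 2, and -0.01183 by quantile normalization) and -0.12 to 0.086 for Angptl4 (highest without DKO replicate 1, alone or with KO replicate 2). The KO difference ran from -0.061 to 0.062 for Pparg and -0.18 to 0.28 for Fabp5 (0.062 and -0.18 without KO replicate 2, alone or with DKO replicate 1), and was -0.11 for Fabp5 by quantile normalization. The KH difference ran from -0.15 to 0.012 for Fabp5 (0.046 on TPM, 0.044 by quantile normalization), -0.050 to 0.066 for Plin2, -0.008415 to 0.12 for Cd36, -0.021 to 0.28 for Lpl and -0.004467 to 0.17 for Angptl4. With 2 or 3 embryos a genotype, 1 library can decide a call, and the number of reads behind levels under 1 FPKM is not given with the values.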
